A study of Mus musculus with 26 samples.

Results

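The genes described here encode histones and proteins that package, mark or remodel chromatin, read in whole hearts of mouse embryos at embryonic day 12.5. They were the probe sets of the A and B array tables annotated with exactly 1 gene symbol that begins with Hdac, Smarc, Hmga, Hmgb, Hmgn, Cbx, Dnmt, Chd, Kdm, Kmt, Ezh, Kat, Mbd, H1f, H2a, H3f or Hist. This gave 68 probe sets (36 on the A array and 32 on the B array) for 56 genes, out of 13179 probe sets, of which 7561 carried 1 symbol and covered 6137 genes. In the mouse line the NK2-specific domain has been removed from Nkx2.5, which encodes a homeodomain factor needed for the heart to form. There were 4 null hearts (3, 4, 8 and N3), 4 heterozygous hearts (5, 6, 12 and N2) and 5 wild-type hearts (1, 2, 7, 9 and N1). Every heart was run on 1 A array and 1 B array. The labels give no strain, sex, litter, promoter or pooling, and each number names 1 heart in 1 genotype, so p-values measure only the spread between these 13 hearts. No probe set carried the symbol Nkx2-5, and the level of the targeted gene was not analysed here.

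DNA in the nucleus is wound around core histones, and linker histones bind where it enters and leaves the particle. High mobility group proteins bend DNA or loosen nucleosomes, remodelling ATPases move nucleosomes, and acetyltransferases, deacetylases, methyltransferases and demethylases write or erase marks that Cbx and methyl-CpG binding proteins read. In the embryonic heart, Smarc remodelling complexes, histone deacetylases and Polycomb methyltransferases are known to take part in the choice and timing of cardiac gene expression, while many histone and high mobility group genes are read most strongly in dividing cells.

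The deposited values were intensities on a linear scale, with 1 value per probe set and array. A detection floor was set at 2 times the noise of each table, with noise taken as the root mean square of the values under 0, which gave 887 on the A array and 1373 on the B array. Arrays had between 1232 and 6584 A values and between 1278 and 6595 B values, since 3 A arrays and 3 B arrays were mostly blank, and every value below is from the hearts that had one. Median intensities ran from 508.2 to 915.0 on A arrays and from 263.6 to 529.7 on B arrays, over unlike sets of values. Over the probe sets with a value on every array they ran from 797.0 to 967.9 (A) and from 425.8 to 585.8 (B). Tests covered the 4494 probe sets with at least 4 hearts above the floor and at least 2 values in every genotype. All 8 probe sets of the cardiomyocyte markers were tested, and none of those for liver or neuron were. The liver gene Afp still exceeded the floor in heterozygous heart 6 (1441.6 on A and 3657.6 on B) and wild-type heart 1 (992.1 and 2102.3). The remaining 4 liver probe sets exceeded it in no heart.

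Chromatin genes were detected more often than the average annotated gene of these arrays. Signal stood above the floor in every heart with a value for 38 of the 68 probe sets (55.9%), against 2211 of the 7561 probe sets with 1 symbol (29.2%). Another 18 probe sets (26.5%, against 50.1%) were above it in no heart. Enough hearts exceeded the floor for 48 probe sets of 40 genes to be tested, and 16 genes had no tested probe set. These shares were not tested, because the probe sets of a gene family are not independent. The median spread between hearts of 1 genotype was an SD of 0.28 on the log2 scale for the 48 tested probe sets and 0.27 for all 4494. It was lowest for H3f3b, with an SD of 0.13, and highest for 1 probe set of Kmt5c (C75959_rc_r_at), with 0.66.

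**Figure D1:**
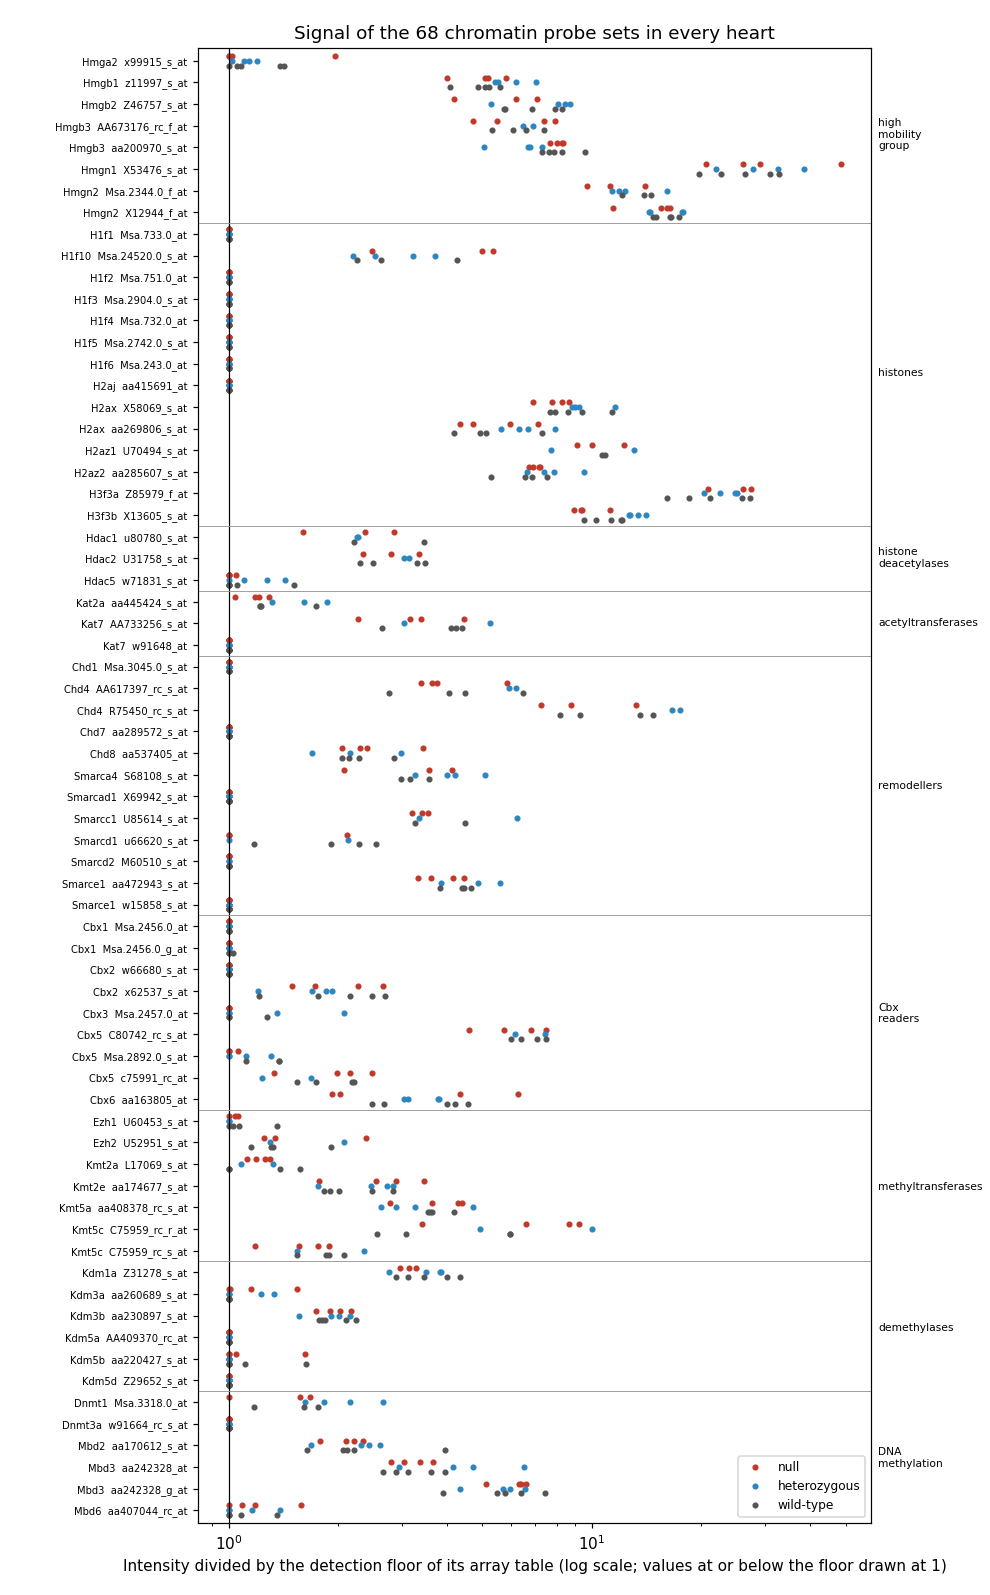
Intensity of each of the 68 chromatin probe sets in every heart with a value, divided by the detection floor of its array table (log axis), with null hearts in red, heterozygous hearts in blue and wild-type hearts in grey. Values at or below the floor are drawn at 1, where the H1f1 to H1f6 probe sets lie in every heart, and the 3 genotypes overlap on most rows; positions on different rows depend on the probes and are not levels to compare.

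By array signal, the linker histone probe sets divided into those of the replication-dependent genes of the histone cluster and that of a single gene outside it. Each gene was read by only 1 probe set, on the B array. A signal below the floor does not show that a gene was silent, since detection depends on its probes. H1f1 to H1f6 lie on chromosome 13, and H1f6 is known as the testis form. H1f10 on chromosome 6 is a replication-independent linker histone. The 6 cluster genes were below the floor in each of the 10 hearts with a value. Their medians over those hearts were 143.4 for H1f1, 71.4 for H1f2, -513.8 for H1f3, -51.2 for H1f4, 276.3 for H1f5 and 519.3 for H1f6, and the highest single value was 955.2, in H1f6. By contrast H1f10 was above the floor in all 10. Its intensities were 3399.8, 6865 and 7331 in null hearts 4, 8 and N3, against 3029, 4428, 3468 and 5078 in heterozygous hearts 12, 5, 6 and N2 and 3101, 3612 and 5839 in wild-type hearts 1, 2 and 7. The genotypes overlapped, and null minus wild-type was 0.46 ± 0.34 on the log2 scale (SE, limma adjusted p = 0.9999), and 0.22 to 0.82 over the alternative settings and with each heart left out. Within heart numbers 1-6 it was 0.02, and within 7-12 it was 0.23, each with 1 null heart. H1f10 was itself higher in hearts 7-12 and N than in hearts 1-6, by 0.53 ± 0.22.

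The sequences just upstream of these genes are shown because the 6 cluster genes were below the floor together while H1f10 was not. Each is the 150 bases before the annotated start in RefSeq (GRCm38.p6), printed on the strand of the gene, with capitals marking AAACACA (the H1 box), CCAAT and TATAAA on either strand.
H1f1 (chr13:23763518-23763667, plus strand): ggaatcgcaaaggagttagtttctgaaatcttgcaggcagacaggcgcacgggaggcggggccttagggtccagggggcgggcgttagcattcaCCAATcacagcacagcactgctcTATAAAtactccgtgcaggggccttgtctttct
H1f2 (chr13:23738657-23738806, plus strand): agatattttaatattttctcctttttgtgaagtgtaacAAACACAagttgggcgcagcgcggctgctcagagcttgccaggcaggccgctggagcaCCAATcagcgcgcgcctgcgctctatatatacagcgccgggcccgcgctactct
H1f3 (chr13:23554882-23555031, plus strand): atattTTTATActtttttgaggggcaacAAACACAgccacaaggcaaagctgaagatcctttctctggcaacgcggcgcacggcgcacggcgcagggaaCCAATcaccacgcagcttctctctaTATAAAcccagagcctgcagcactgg
H1f4 (chr13:23622559-23622708, minus strand): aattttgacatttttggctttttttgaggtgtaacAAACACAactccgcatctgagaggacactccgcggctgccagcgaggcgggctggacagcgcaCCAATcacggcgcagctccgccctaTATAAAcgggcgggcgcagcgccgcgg
H1f5 (chr13:21780626-21780775, minus strand): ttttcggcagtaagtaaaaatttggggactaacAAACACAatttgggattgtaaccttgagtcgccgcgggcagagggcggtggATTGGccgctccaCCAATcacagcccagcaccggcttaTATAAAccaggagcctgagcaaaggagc
H1f6 (chr13:23695661-23695810, plus strand): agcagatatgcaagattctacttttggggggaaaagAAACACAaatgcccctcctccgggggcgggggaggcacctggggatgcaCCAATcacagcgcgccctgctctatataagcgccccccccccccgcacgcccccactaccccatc
H1f10 (chr6:87981483-87981632, minus strand): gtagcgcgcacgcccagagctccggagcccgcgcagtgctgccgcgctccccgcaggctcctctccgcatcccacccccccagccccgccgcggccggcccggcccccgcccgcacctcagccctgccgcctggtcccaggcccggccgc
AAACACA was found in 5 of the 6 cluster genes (all but H1f1), CCAAT in 6 of 6 and TATAAA in 4 of 6. The same letters occur in 3.5%, 25.3% and 8.1% of the windows of 27025 genes, and all 3 motifs together in 0.14% of them and in 3 of the 6 cluster genes. No match to any of them was found in the H1f10 window. A match is a description of the letters and not of a bound factor, and no link between these motifs and detection was tested.

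Core histone variants were read well above the floor. H2ax, the variant phosphorylated at DNA breaks, H2az1 and H2az2, which mark promoters, and H3f3a and H3f3b, both of which encode the replacement histone H3.3, exceeded it in every heart with a value. H2aj (aa415691_at) exceeded it in none of 11 hearts. Probe sets whose names end in _f_at, such as that of H3f3a (Z85979_f_at), are by the array maker's naming shared within a gene family, so part of their signal may come from related transcripts. H3f3a had its lowest, median and highest intensity at 22056, 32501 and 37782 over 12 hearts, and its differences between genotypes were 0.21 ± 0.20 for null minus wild-type and 0.10 ± 0.21 for null minus heterozygous (log2, SE).

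All 8 high mobility group probe sets were tested, and 7 were above the floor in every heart with a value. Hmgn1, which binds nucleosomes and loosens chromatin, had intensities of 35878, 28381, 66509 and 39819 in null hearts 3, 4, 8 and N3, against 44689.9, 30217, 38099 and 52772 in heterozygous hearts 12, 5, 6 and N2 and 27170.4, 31234, 42569 and 36247 in wild-type hearts 1, 2, 7 and 9 and 44899 in wild-type heart N1. Null heart 8 was the highest of the 13, and the 3 genotypes overlapped. Hmgn2, its close relative, ranged over 15701 to 24411 in X12944_f_at and 13361 to 22110.3 in its second probe set. Hmgb1 and Hmgb2, which bend DNA, ranged over 5473 to 9635 and 5716 to 11927. Null minus wild-type was 0.01 ± 0.14 for Hmgb1 and -0.27 ± 0.21 for Hmgb2, with overlapping groups in both. Hmga2, an architectural factor of embryonic cells, was the weakest in detection, above the floor in 2 of 4 null, 4 of 4 heterozygous and 4 of 5 wild-type hearts.

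Among the enzymes, detection was uneven. The class I deacetylases Hdac1 and Hdac2 were above the floor in all 7 and all 9 hearts with a value, and the class II deacetylase Hdac5 in 1 of 4 null, 3 of 4 heterozygous and 2 of 5 wild-type hearts. Of the remodellers, the Brg1 ATPase gene Smarca4 and its core partner Smarcc1, the NuRD ATPase gene Chd4 and its family member Chd8 were above it wherever they had a value. Chd1, Chd7, Smarcad1 and Smarcd2 were above it in no heart. The H3K4 methyltransferase gene Kmt2a was above it in 8 of 10 hearts, and its family member Kmt2e and the H4K20 methyltransferase gene Kmt5a in all 13 and all 12 with a value. The Polycomb H3K27 methyltransferase Ezh2 was read in all 9 hearts with a value, from 1024 to 2125, while Ezh1, its counterpart in resting cells, exceeded the floor in 2 of 3 null, 0 of 2 heterozygous and 3 of 4 wild-type hearts. The LSD1 demethylase gene Kdm1a (12 of 12 hearts) and the H3K9 demethylase gene Kdm3b (13 of 13) were read throughout, the H3K4 demethylase gene Kdm5b in 3 of 4 null, 0 of 4 heterozygous and 2 of 5 wild-type hearts, and Kdm5a and the Y-linked Kdm5d in no heart. The maintenance DNA methyltransferase Dnmt1 was above the floor in 9 of 10 hearts, and the de novo enzyme Dnmt3a in none of 13. The methyl-CpG binding family members Mbd2 and Mbd6 were above it in 13 of 13 and 7 of 12 hearts. A probe set below the floor does not show that the gene was silent, since detection depends on its probes.

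The first question was whether loss of the domain altered these genes in null hearts. No chromatin gene passed an adjusted p of 0.05 in null against wild-type hearts (0 of 48, against 1 of all 4494 probe sets, 0.0223%). Of the 48, 19 were higher and 29 lower, with a median log2 difference of -0.03, against -0.01 for all tested probe sets. At an unadjusted p under 0.05 there was 1 member (2.08%), against 2.4% of all probe sets. The same probe set was the only member whose groups did not overlap (background 2.27%), and it belongs to Cbx5, which encodes the heterochromatin protein HP1 alpha. For 35 of the 38 members above the floor in every heart, the 95% interval of the null minus wild-type difference lay within 2-fold in either direction. The exceptions were Hdac1, H1f10 and 1 probe set of Kmt5c.

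Cbx5 (its B-array probe set) had intensities of 1458, 868 and 1041 in null hearts 4, 8 and N3, against 1894, 1889 and 1533 in wild-type hearts 1, 2 and 7. All 3 null hearts were lower than all 3 wild-type hearts, but 2 of the 3 null values were under the floor of 1373. The difference on values raised to the floor was -0.33 ± 0.15 (log2, SE, limma unadjusted p = 0.0413, adjusted p = 0.9999), and -0.69 ± 0.28 with a floor of 1 times the noise. Within heart numbers 1-6 it was -0.38, and within 7-12 it was -0.16. The other 2 probe sets of Cbx5 gave differences of -0.14 ± 0.17 (C80742_rc_s_at) and 0.03 ± 0.23 (c75991_rc_at), with overlapping groups in both.

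The largest null minus wild-type estimates belonged to the H4K20 methyltransferase gene Kmt5c and the Smarc complex subunit gene Smarcd1. Kmt5c (C75959_rc_r_at) had 8184, 7689.6, 5859 and 3015 in null hearts 3, 4, 8 and N3, against 5297, 5283, 2736 and 2278 in wild-type hearts 2, 7, 9 and N1. The groups overlapped, the difference was 0.67 ± 0.36 (unadjusted p = 0.0818), and the gene's other probe set (C75959_rc_s_at) gave -0.22 ± 0.21. Smarcd1 (u66620_s_at) had 623, 860.0 and 1883 in null hearts 3, 4 and N3, against 1039, 1694, 2028 and 2254 in wild-type hearts 2, 7, 9 and N1. These overlapped too, with -0.56 ± 0.35 (unadjusted p = 0.136), and the estimate shrank to -0.19 ± 0.19 with heart-number group as a block. Kdm3a, another H3K9 demethylase gene, exceeded the floor in 3 of the 4 null hearts with a value and in 0 of 4 wild-type hearts. It averaged 999.2 ± 275.1 in null hearts and 803.9 ± 61.9 in wild-type hearts (SD, n = 4 each), and its difference on values raised to the floor was 0.21 ± 0.14 (unadjusted p = 0.162). The remaining members among the 5 smallest p-values of either direction were Kmt2e at 0.25 ± 0.22, H3f3a and H1f10 as above, Hmgb2 as above, and H3f3b and H2ax (X58069_s_at), both at -0.18.

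**Figure D2:**
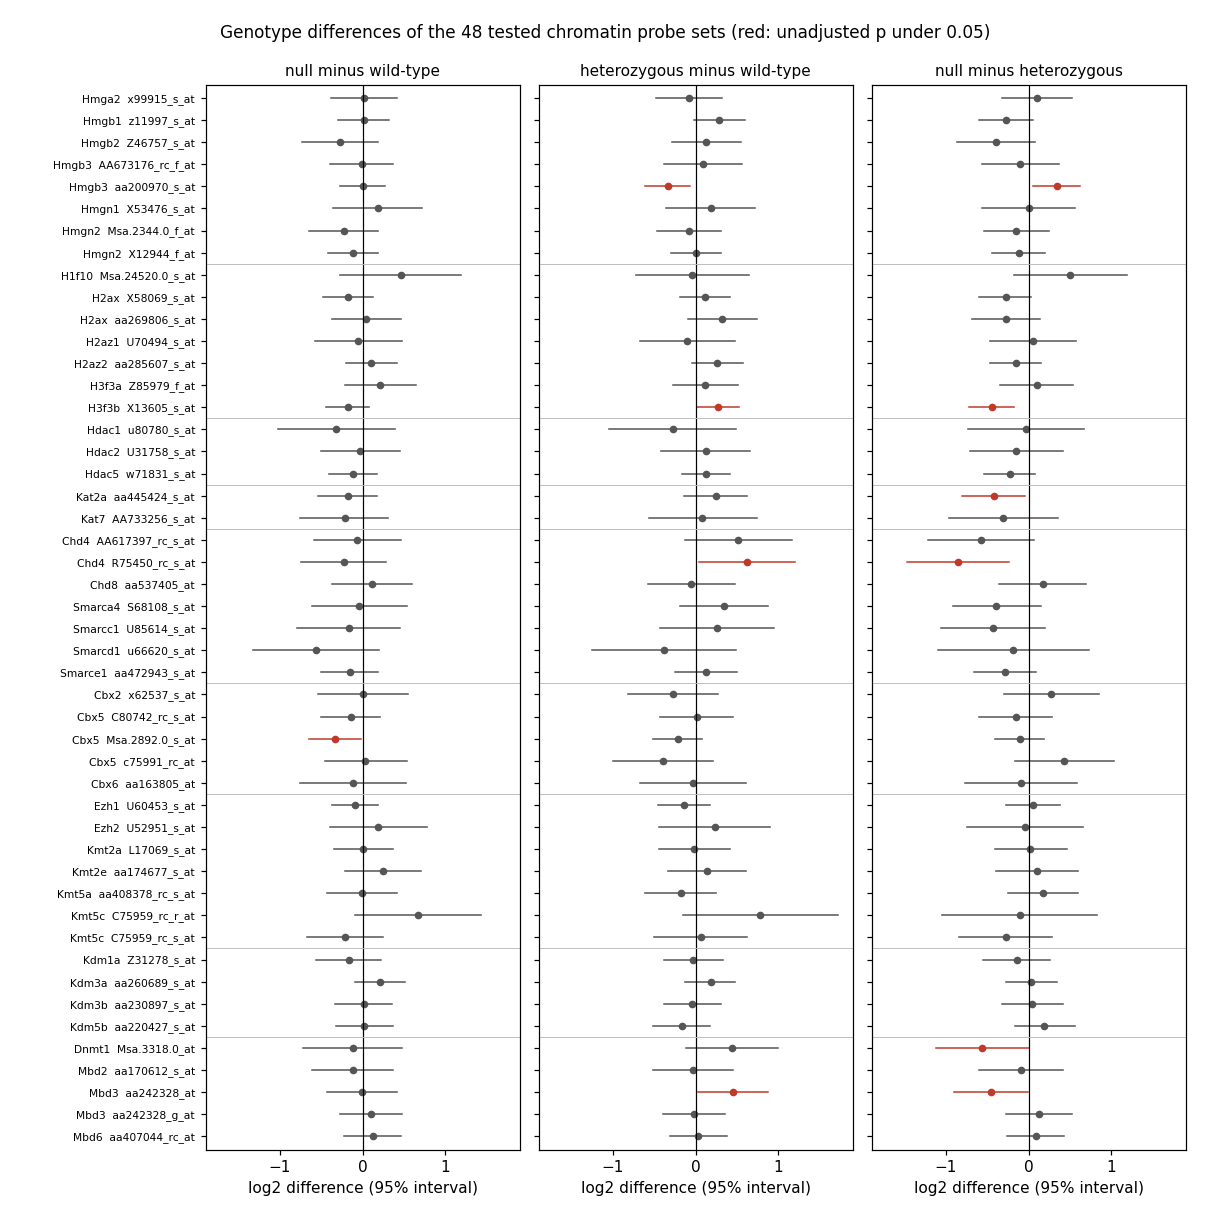
Log2 differences of the 48 tested chromatin probe sets with 95% intervals, for null minus wild-type, heterozygous minus wild-type and null minus heterozygous hearts; red marks an unadjusted p under 0.05. Red points number 1, 4 and 6 in the 3 panels, and none of the 48 passed an adjusted p of 0.05 in any panel.

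In heterozygous against wild-type hearts 0 of 48 members were called by limma, as were 0 of all 4494 probe sets (0.0%). This comparison uses the same wild-type hearts as the previous one. The median difference of the members was 0.07, against -0.01 for all probe sets. At an unadjusted p under 0.05 there were 4 members (8.33%, background 3.38%), and the groups did not overlap for 3 (6.25%, background 5.5%). They were Chd4, H3f3b and the NuRD subunit gene Mbd3, 3 with higher values in heterozygous hearts (background 1.6%), and Hmgb3, an X-linked high mobility group gene, with lower values (1.78%). Only Mbd3 had overlapping groups. Next in order came Hmgb1 at 0.28 ± 0.14 and H2az2 at 0.26 ± 0.14 among the higher ones, and 2 probe sets of Cbx5, at -0.22 ± 0.14 and -0.40 ± 0.28 (c75991_rc_at), among the lower ones. Kdm5b, whose heterozygous values were all under the floor, followed at -0.17 ± 0.16 and the Polycomb reader gene Cbx2 at -0.27 ± 0.26. The smallest adjusted p among the members was 0.9814.

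Null against heterozygous hearts likewise gave 0 of 48 called members and 0 of 4494 called probe sets (0.0%). At an unadjusted p under 0.05 there were 6 members (12.5%, background 5.79%): Chd4, H3f3b, Mbd3, the acetyltransferase gene Kat2a and Dnmt1 with lower values in null hearts (background 2.94%), and Hmgb3 with higher values (2.85%). After Hmgb3, the smallest p-values among the higher ones were those of H1f10 (0.50 ± 0.31), Cbx5 (c75991_rc_at, 0.43 ± 0.28), Kdm5b (0.19 ± 0.17) and Cbx2 (0.27 ± 0.27). The groups did not overlap for 6 probe sets (12.5%, background 7.7%), which were both of Chd4, 1 of H2ax, and those of H3f3b, Hmgb3 and Kat2a. The median of the members was -0.11, with 17 higher and 31 lower, against 0.02 for all probe sets, and the smallest adjusted p was 0.7744. Both comparisons use the same heterozygous hearts, so their lists are not independent.

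Chd4, the ATPase of the NuRD complex, had the largest null minus heterozygous difference of the 48. Its probe set R75450_rc_s_at gave 7759, 11746 and 6446 in null hearts 3, 4 and N3, against 14785 and 15519.5 in heterozygous hearts 12 and 5 and 13109.5, 8246, 12021 and 7254 in wild-type hearts 2, 7, 9 and N1. Both heterozygous hearts lay above every null and every wild-type heart, while null and wild-type hearts overlapped. The differences were -0.85 ± 0.28 for null minus heterozygous (unadjusted p = 0.0104, adjusted p = 0.7744) and 0.62 ± 0.27 for heterozygous minus wild-type (unadjusted p = 0.0392). Its other probe set, AA617397_rc_s_at, ran from 3006 to 5189 in 4 null hearts, against 5498 and 5249 in heterozygous hearts 12 and 5 and 2449.5 to 5745 in 4 wild-type hearts, with -0.58 ± 0.30 and 0.51 ± 0.30. Each of these rests on 2 heterozygous hearts, because the A arrays of hearts 6 and N2 were blank there.

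H3f3b rested on all 13 hearts. Its intensities (X13605_s_at, chromosome 11) were 12907, 12283, 12845 and 15387 in null hearts 3, 4, 8 and N3, against 18449, 17487, 17430.5 and 19377 in heterozygous hearts 12, 5, 6 and N2 and 13079.7, 15489, 16618, 14073 and 16527 in wild-type hearts 1, 2, 7, 9 and N1. Every heterozygous heart lay above every null and every wild-type heart, and null overlapped wild-type. Null minus heterozygous was -0.45 ± 0.13 (unadjusted p = 0.00279, adjusted p = 0.7744), and it was -0.47, -0.52 and -0.33 within heart numbers 1-6, 7-12 and N. Heterozygous minus wild-type was 0.27 ± 0.12 (unadjusted p = 0.0409) and null minus wild-type -0.18 ± 0.12. H3f3a, the other H3.3 gene, did not follow this order, with 0.11 ± 0.18 for heterozygous minus wild-type.

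Hmgb3 (aa200970_s_at) had 7122, 6817, 7366 and 7379 in null hearts 3, 4, 8 and N3, against 6009.9, 6469, 4480.3 and 5927 in heterozygous hearts 12, 5, 6 and N2 and 6477, 6971, 6754, 7349 and 8492 in wild-type hearts 1, 2, 7, 9 and N1. The 4 heterozygous hearts were below all others. The differences were 0.34 ± 0.14 for null minus heterozygous and -0.34 ± 0.13 for heterozygous minus wild-type (unadjusted p = 0.0232 and 0.0171). The first was 0.18 ± 0.13 with quantile scaling and 0.20 ± 0.15 without the mostly blank arrays. The gene's other probe set (AA673176_rc_f_at) had values in 2 heterozygous hearts and gave -0.10 ± 0.22 and 0.09 ± 0.22, with overlapping groups.

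Mbd3 (aa242328_at) had 2697, 2490.4, 2977 and 3240.2 in null hearts 3, 4, 8 and N3, against 4175, 3682, 2613 and 5774 in heterozygous hearts 12, 5, 6 and N2 and 2364 to 3494 in 5 wild-type hearts. Heterozygous heart N2 was the highest and heart 6 lay among the null values, and the gene's second probe set (aa242328_g_at) gave 0.12 ± 0.19 for null minus heterozygous in place of -0.46 ± 0.21. Without heterozygous heart N2 the -0.46 became -0.27. Dnmt1 averaged 1920.3 ± 530.8 in null hearts (SD, n = 3) and 2843 ± 623 in heterozygous hearts (SD, n = 4), with -0.56 ± 0.26 and overlapping groups, and -0.33 without null heart 4. Kat2a (aa445424_s_at) had 924, 1073, 1148 and 1047 in null hearts 3, 4, 8 and N3, against 1426, 1165 and 1652 in heterozygous hearts 12, 5 and N2. Those did not overlap, the difference was -0.42 ± 0.18 (unadjusted p = 0.0329), and the 4 null values lay between 924 and 1148, near the floor of 887.

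**Figure D3:**
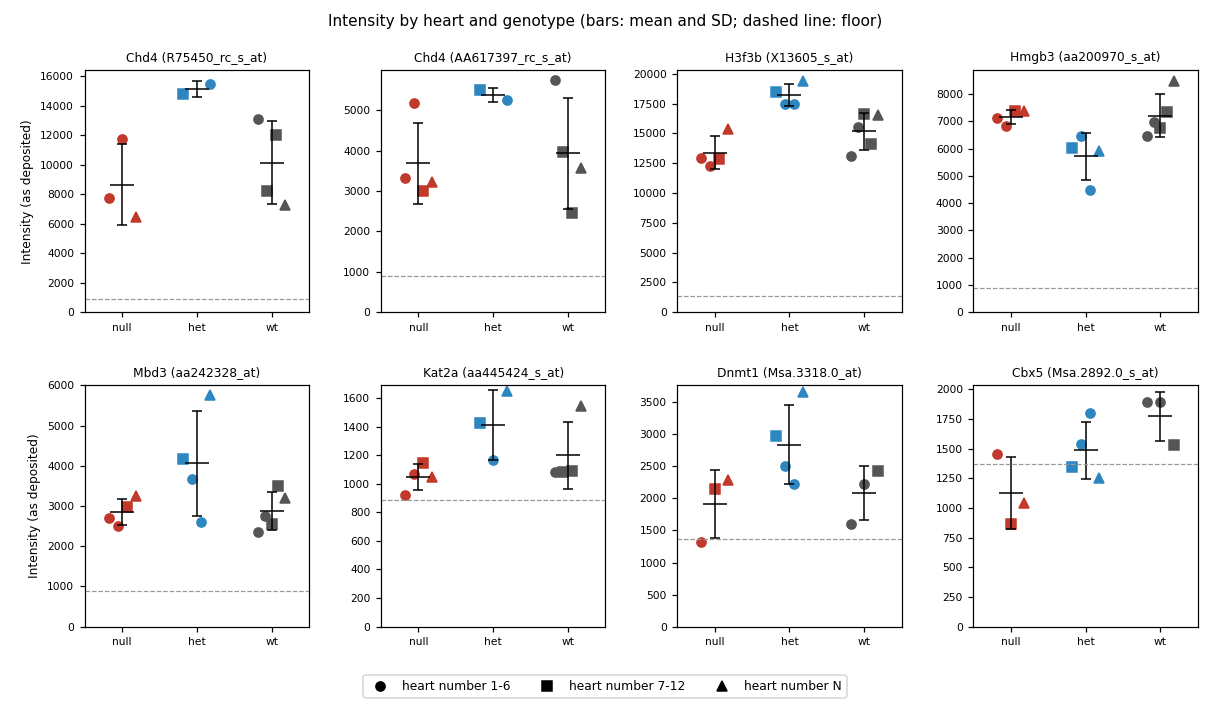
Intensity in each heart with a value by genotype (null, heterozygous, wild-type) for the 7 probe sets with an unadjusted p under 0.05 in a genotype comparison and the second probe set of Chd4; marker shapes give the heart-number group, bars the mean and SD, and the dashed line the floor. Heterozygous hearts lie above null and wild-type hearts for H3f3b and Chd4 (R75450_rc_s_at) and below them for Hmgb3.

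By subfamily, the remodellers lay lowest in null against heterozygous hearts, with 6 of 7 tested probe sets lower, a median of -0.39 and none called. That median stayed between -0.48 and -0.22 over the alternative settings and with each heart left out. The 2 acetyltransferase probe sets had a median of -0.37, the 3 deacetylase probe sets -0.15, the 7 histone probe sets -0.16 and the 8 high mobility group probe sets -0.11. Medians nearer 0 were found for the Cbx readers (-0.09), DNA methylation genes (-0.09), methyltransferases (0.02) and demethylases (0.04). In null against wild-type hearts the subfamily medians lay between -0.20 and 0.04, and in heterozygous against wild-type hearts between -0.22 (Cbx readers) and 0.26 (remodellers). With 2 to 8 probe sets in a subfamily, several of them of the same gene, these are descriptions.

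Markers of cell types also differed over the same hearts, with none called. All 8 cardiomyocyte marker probe sets were higher in null than in wild-type hearts (median 0.27) and 7 of 8 higher in null than in heterozygous hearts (0.40). Of the 19 tested probe sets of proliferation genes, 16 were lower in null than in wild-type hearts (median -0.09) and 16 lower in null than in heterozygous hearts (-0.19). All 6 endothelial and endocardial probe sets tested were lower in null than in wild-type hearts (median -0.26) and 5 of 6 lower in null than in heterozygous hearts (-0.25). The summed intensity of the 4 proliferation probe sets with a value in every heart was 15757 to 22331 in null, 18794 to 27218 in heterozygous and 16679 to 25775 in wild-type hearts. That of 2 cardiomyocyte probe sets was 93662 to 158717 in null, 39341 to 113493 in heterozygous and 31388 to 232707 in wild-type hearts. Most of this sum came from Actc1 (x03767_f_at), at 27376 to 229274, while Ryr2 read 2648.5 to 6107. Of the 10 erythroid probe sets 6 were tested, and all 6 were higher in null than in wild-type hearts (median 0.51) and 5 of 6 higher in null than in heterozygous hearts (0.73). Among 4 skeletal muscle probe sets, Tnni2, the fast troponin I gene, stood at 1.83 ± 0.33 for null minus wild-type (adjusted p = 0.1132). The part of these markers in the chromatin values was not tested. In whole hearts fewer cells of a type and less RNA per cell cannot be told apart. Bright B-array probe sets of unlike cell types also moved together. Actc1 and Hba-a1 (v00714_f_at) read 229274 and 227332.5 in wild-type heart 1, against 34277 and 5470 in heterozygous heart 12. The erythroid gene Alas2 went the other way, at 9303 against 22504.5. Whether such shifts come from the cells or the arrays was not tested.

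The heart numbers divide the hearts in another way, into 7-12 and N (null 8 and N3, heterozygous 12 and N2, wild-type 7, 9 and N1) and 1-6 (null 3 and 4, heterozygous 5 and 6, wild-type 1 and 2). The labels do not say what the numbers stand for. An earlier analysis of these same data had already shown that this grouping moves many probe sets. Its p-values are therefore not those of a comparison chosen without sight of the data. With genotype in the fit, 5 of 48 members were called (10.4%), against 321 of 4494 probe sets (7.14%). In hearts 7-12 and N, Cbx6, Smarcd1, Hmgn1 and Kat7 were higher (background 3.87%) and H2ax was lower (3.27%). The groups did not overlap for 2 members (4.17%, background 6.88%), and 16 had an unadjusted p under 0.05 (33.3%, background 24.7%). The median of the members was 0.05 and that of all probe sets 0.01.

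Smarcd1, a subunit of the BAF remodelling complex, was called with the smallest p. It had 1883, 1895, 1694, 2028 and 2254 in null heart N3, heterozygous heart 12 and wild-type hearts 7, 9 and N1, against 623, 860.0, 879.9 and 1039 in null hearts 3 and 4, heterozygous heart 5 and wild-type heart 2. Every heart of the first set was above every heart of the second, of which 3 of 4 were under the floor of 887. The difference was 1.03 ± 0.16 (log2, SE, limma adjusted p = 0.006905), and it was 1.09, 1.10 and 0.93 within null, heterozygous and wild-type hearts.

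Cbx6, a Polycomb reader, had a value in all 13 hearts. In hearts 7-12 and N it ran from 3349 to 5539.6 with a median of 3724, against 1709 to 2760.5 in hearts 1-6. The groups did not overlap, and the difference was 0.80 ± 0.16 (adjusted p = 0.01072). Within null, heterozygous and wild-type hearts it was 1.40, 0.30 and 0.72.

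Hmgn1 averaged 46786 ± 10084 in hearts 7-12 and N (SD, n = 7) and 31830 ± 4295 in hearts 1-6 (SD, n = 6), with overlapping groups. The difference was 0.56 ± 0.15 (adjusted p = 0.03484), and 1.11 ± 0.20 with quantile scaling. Kat7 (AA733256_s_at), an acetyltransferase gene, averaged 3780 ± 602 (SD, n = 6) and 2512 ± 424 (SD, n = 4), a difference of 0.60 ± 0.17 (adjusted p = 0.04956). H2ax on the A array (aa269806_s_at) averaged 4455 ± 663 (SD, n = 7) and 6204 ± 649 (SD, n = 5), a difference of -0.47 ± 0.11 (adjusted p = 0.02712), while its B probe set (X58069_s_at) gave 0.04 ± 0.12.

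These 3 calls did not hold with every heart left out. Leaving out heterozygous heart 6, null heart 4 or 8, or wild-type heart 1, 2, 7, 9 or N1 moved the adjusted p of Kat7 to between 0.0522 and 0.184. Kat7 had no value in heterozygous heart 6 or wild-type heart 1. Without those hearts its own values stayed the same, and its adjusted p moved only through the other probe sets. For Hmgn1 leaving out heterozygous heart 5, null heart 4 or 8, or wild-type heart 1, 2, 7 or N1 gave 0.0547 to 0.0922. For H2ax leaving out null heart 4 or 8 or wild-type heart 2 or 7 gave 0.0524 to 0.133. Without the mostly blank arrays only Cbx6 and Smarcd1 were called. Smarcd1 and Kat7 could not be fitted without heterozygous heart 5 or 12, which leaves 1 heterozygous value.

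**Figure D4:**
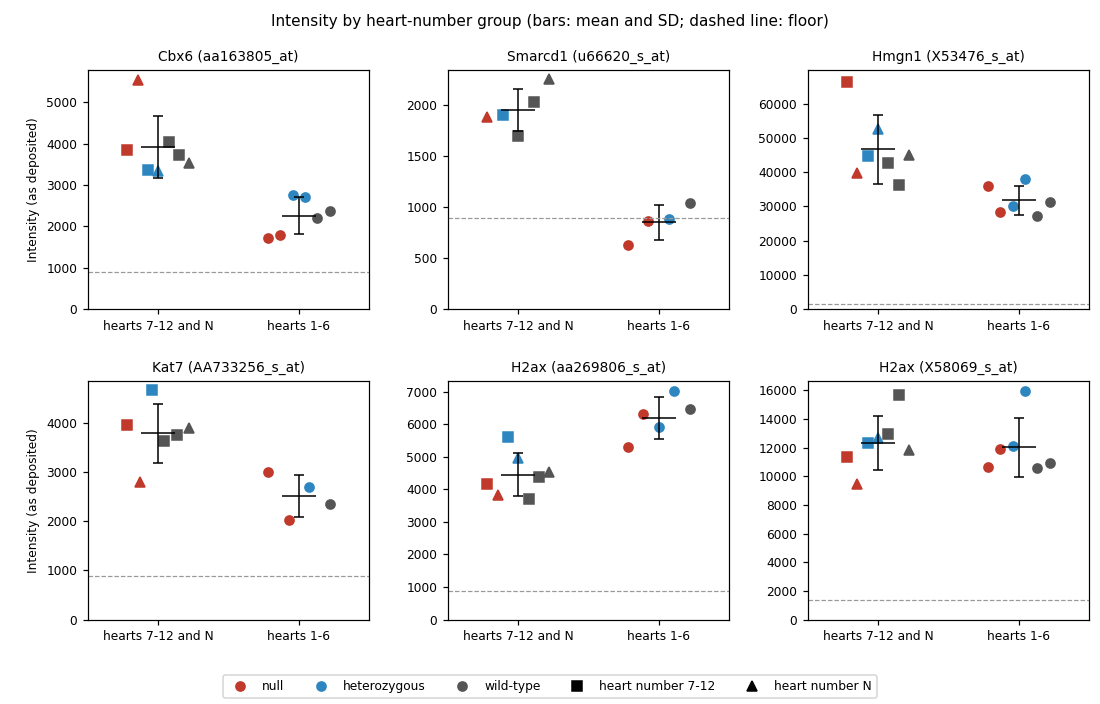
Intensity in each heart with a value for the 5 members called between hearts 7-12 and N (left) and hearts 1-6 (right), with the B probe set of H2ax beside them; colours give the genotype, bars the mean and SD, and the dashed line the floor. Cbx6 and Smarcd1 separate the sets, with Smarcd1 at 1694 to 2254 against 623 to 1039, and the 2 probe sets of H2ax differ.

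Cell type markers differed over the same division. Of the 8 cardiomyocyte probe sets 0 were higher in hearts 7-12 and N (median -0.35), with Tnnc1, the cardiac troponin C gene, called at -0.65. Of the 6 endothelial and endocardial probe sets 4 were higher (median 0.29), with Eng (0.81) and Tie1 (0.59) called. The summed intensity of the 3 endothelial probe sets with a value in every heart was 22255 to 34797 in hearts 7-12 and N, against 13036 to 22604 in hearts 1-6. Proliferation genes gave 10 of 19 higher (median 0.01), with Mki67 called at 0.50. The 6 erythroid probe sets had a median of -0.48, from -2.12 to 1.29, with the haem synthesis gene Alas2 called at 1.29, and the skeletal muscle regulator Myog was called at -0.88 (adjusted p = 0.005254). Their part in the 5 member calls was not tested.

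Several genes had more than 1 probe set, and these did not always tell the same. Of the 11 such genes, Cbx2, Kat7 and Smarce1 were read by 1 probe set in every heart with a value and by the other in none: Cbx2 in 13 of 13 against 0 of 13, Kat7 in 10 of 10 against 0 of 13, and Smarce1 in 11 of 11 against 0 of 13. Cbx1 had 1 heart above the floor over 2 probe sets. Cbx3 is not among the 11, as it had only 1 probe set of its own, which was above the floor in 3 of 10 hearts and was not tested. For Chd4 both probe sets gave the same signs in all 4 comparisons, as did Hmgn2 for null against wild-type and null against heterozygous hearts. For Kmt5c, Mbd3, H2ax, Hmgb3 and Cbx5 the probe sets differed in sign in at least 1 genotype comparison.

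Other chromatin regulators, a list of 87 genes outside the naming rule (Polycomb subunits, bromodomain proteins, histone chaperones, co-repressors and others), had 46 genes on the arrays and 46 tested probe sets of 33 genes. None was called in a genotype comparison (0 of 46 in each), with median differences of 0.01, 0.03 and -0.06 for null minus wild-type, heterozygous minus wild-type and null minus heterozygous. The Polycomb subunit gene Suz12 had the smallest p among the higher ones in null against wild-type hearts, at 0.49 ± 0.17, although a second Suz12 probe set (aa175756_s_at), above the floor in 13 of 13 hearts against 5 of 11 for the first, gave 0.09 ± 0.26. Anp32a, an acidic nuclear phosphoprotein gene, had the smallest p among the lower ones, at -0.49 ± 0.19 (unadjusted p = 0.0206, against 0.0112 for the first Suz12 probe set, limma adjusted p = 0.9999 for both). Between hearts 7-12 and N and hearts 1-6, the acetyltransferase gene Crebbp (0.44 ± 0.10) and the Polycomb-associated gene Asxl1 (0.69 ± 0.18) were called higher, and the acetylation inhibitor gene Set lower (-0.55 ± 0.15).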

How the data were processed

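Total RNA of 13 hearts was read on 26 oligonucleotide arrays. The deposited values are intensity on a linear scale. Arrays without blank cells share a trimmed mean, which shows a scaling per array before deposit, and 10.1% to 29.5% of each array's values lie below 0, so they follow a subtraction; the software is not given in the sources used here. What was subtracted is unknown, as is the origin of blank cells. Blank cells were treated as missing. Symbols came from the platform annotation, updated by gene ID through RefSeq (GRCm38.p6), whose table held 5551 of 5560 A-array IDs and 1993 of 2001 B-array IDs; 827 A and 4567 B probe sets carried no gene.

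Values under 2 times the noise (443.5 for A, 686.4 for B) were raised to that floor and taken to log2. The test was limma 3.58.1 (R 4.3.3), in 1 fit per table over all 13 hearts with a variance trend, two-sided, with Benjamini-Hochberg adjustment over the 4494 probe sets tested and a threshold of 0.05; control probe sets were left out. Hearts 7-12 and N were compared with hearts 1-6 with genotype in the fit. Alternatives were quantile scaling, a floor of 1 times the noise, no filter on dim probe sets, the mostly blank arrays left out, the heart-number group as a block, and each heart left out.

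The members, lists and tests were chosen with earlier results of these data known. Members named were those called in any comparison, the 5 smallest p-values per direction in each genotype comparison, the best-read probe set of a subfamily, and genes with several probe sets; others are given by subfamily. On data simulated from these hearts, the test recovered 60.6% of probe sets changed by 1 on the log2 scale and 80.6% of those changed by 2 in null against wild-type hearts (4491 tested), and 78.6% and 90.5% between the heart-number groups (4485 tested). The simulated null against wild-type comparison held 99 and 98 such changed probe sets at once, which eases the adjustment. Where few probe sets change, the shares recovered would be lower. Precision is limited by how many arrays were run.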

Additional observations from a re-analysis of the deposited data

Results flagged for a closer look

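In groups of 4 or 5 hearts, a heart stood apart from the rest of its genotype in 3 of the 76 groups examined over 34 chromatin probe sets, where chance gives about 1 in 20. The flags were thus no more frequent than chance gives, and the 3 are listed only as values. H2ax on the B array (X58069_s_at) was at 15933.9 in heterozygous heart 6, while the other 3 heterozygous hearts lay between 12080.1 and 12665.2. Kat2a (aa445424_s_at) was at 1548.4 in wild-type heart N1, and the other 3 wild-type hearts with a value were between 1080.6 and 1088.5. One of the probe sets of Chd4 (AA617397_rc_s_at) read 5188.6 in null heart 4, against 3005.6 to 3326.4 in the other 3 null hearts. Heart 4 was also the highest null heart in the second Chd4 probe set (R75450_rc_s_at), at 11746 against 7759 and 6446 in null hearts 3 and N3.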

How the results depend on the processing

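No chromatin gene was called in any of the 3 genotype comparisons under any alternative run or with any heart left out. The median difference of the members lay between -0.07 and 0.00 for null minus wild-type hearts, 0.02 and 0.10 for heterozygous minus wild-type, -0.17 and -0.06 for null minus heterozygous, and 0.03 and 0.15 for hearts 7-12 and N minus hearts 1-6 as each heart was left out. Over all probe sets, null against wild-type gave 1 call, against 2 with quantile scaling, 2 with a floor of 1 times the noise, 0 with no filter, 0 without the mostly blank arrays, 4 with heart-number group as a block and 0 to 3 with a heart left out. Null against heterozygous gave 1 with the block in place of 0, and heterozygous against wild-type 0 throughout; with a heart left out both gave 0. Between hearts 7-12 and N and hearts 1-6 the 321 calls became 204 with quantile scaling, 198 with no filter, 192 without the mostly blank arrays and 103 to 342 with a heart left out. The 5 member calls there became 2 without the mostly blank arrays and 2 to 5 with a heart left out; the cause was not tested beyond the fewer hearts. These need not be the same members. The count over all probe sets moved by over 1.5 times without null heart 4 (104) or 8 (142), heterozygous heart 5 (175) or 12 (211), or wild-type heart 1 (184), 2 (103) or 7 (142), and the member count fell to 2 without null heart 4 or 8, heterozygous heart 5 or wild-type heart 2 or 7, and to 3 without wild-type heart 1 or N1. Of the single probe sets followed, 584 values kept their direction and side of the threshold, 25 kept only their direction, and none turned round. The genotype differences among them were never called (limma adjusted p of 0.249 or more), so they had no call to lose. Only the 5 heart-number calls could weaken. Cbx6 and Smarcd1 stayed called throughout, so the 25 belong to Kat7, Hmgn1 and H2ax. With 4 null and 4 heterozygous hearts at most, 60% to 63% of simulated 2-fold changes were called between genotypes. Those simulations held many changed probe sets, and the share would be lower where few change. Differences that rest on values under the floor are understated, because those values were raised to it. No paired analysis was possible because each heart number belongs to a single genotype.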

Other observations

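Cluster core histones were read although the cluster linker histones were not. A probe set annotated to 12 H2A genes of the cluster (m37736_f_at) was above the floor in 9 of 9 hearts, with a lowest, median and highest intensity of 41186, 53424.5 and 72451, and one annotated to H2ac19 and H2ac18 (z30940_f_at) in 12 of 12, with 7895, 15385 and 25019.5. Both name several genes and so lie outside the set. The second averaged 11719 ± 3318.3 in hearts 7-12 and N (SD, n = 7) and 18949 ± 3762.5 in hearts 1-6 (SD, n = 5), a difference of -0.68 ± 0.18 (log2, SE, limma adjusted p = 0.03929). A probe set shared by the heterochromatin protein gene Cbx3 and its pseudogene Cbx3-ps5 (aa521730_at) was above the floor in 11 of 11 hearts and lower in hearts 7-12 and N by -0.92 ± 0.24 (adjusted p = 0.03484). None of these passed the threshold between genotypes. The remaining 2 such probe sets, annotated to H2A, H2B and H3 cluster genes, were above the floor in 0 of 10 hearts.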
